A study of Drosophila melanogaster with 6 samples.

Results

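Pxn, NimC1, NimB1, drpr and lz are 5 genes known from haemocytes, the blood cells of Drosophila. They were taken by symbol from the deposited tables of an RNA sequencing study of S2 cells, an embryo-derived line that resembles phagocytic haemocytes. The study has 6 libraries of polyadenylated RNA, 2 in each of 3 groups. All cells were grown at 25 degrees in Schneider medium with 10% fetal bovine serum and treated for 5 days with double-stranded RNA in DOTAP transfection reagent. The control group received RNA against GFP, and the others received RNA against dKDM4A, a histone H3 demethylase gene, or against HP1a, which encodes a heterochromatin protein that recognises methylated histone H3. Each RNAi group was set against the same 2 GFP libraries in a table of its own.

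The tables hold only features (genes and repeats) that had an adjusted p below 0.05, which are called listed here. Of 582 features listed in either table, 5 are these markers. Pxn and NimC1 are among the 90 listed for dKDM4A RNAi, and Pxn, NimB1, drpr and lz are among the 535 listed for HP1a RNAi. The listing itself was therefore chosen by the measured difference from GFP RNAi, and the differences below describe listed genes rather than test an unselected set. Features outside the lists, including the general haemocyte genes Hml, srp and He, were not analysed here, so the haemocyte character of the cells could be read only from the listed markers. Total depth is unknown for the same reason. Values are normalized counts, that is, reads divided by a size factor for each library. The median listed feature held from 745 to 3362 reads per library. Whether replicate libraries were made from separate cultures is not stated in the labels, and the p-values may therefore measure technical spread only.

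Haemocytes circulate in the fly or settle in its tissues, and most of them are plasmatocytes, which engulf microbes and dying cells and secrete extracellular matrix. Crystal cells are a smaller class that holds the enzymes of melanization, and lamellocytes are flat cells that wrap parasites. The Nimrod genes and drpr encode proteins with repeats of the epidermal growth factor type, several of which are receptors of phagocytosis. Pxn encodes peroxidasin, a peroxidase of basement membranes, and lz encodes a Runx transcription factor needed for crystal cells.

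The targeted genes did not both follow their labels. Kdm4A had 842 and 843 normalized counts in the GFP libraries and 2141 and 2675 in the libraries labelled dKDM4A RNAi, which is 2.86-fold higher. That goes against the label, and every direction below for this group is that of libraries so labelled. The gene that encodes HP1a was 1.66-fold lower in HP1a RNAi, in the direction of its label.

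In the libraries labelled dKDM4A RNAi 2 of the 5 markers were listed, both higher, where 0.876% of 7533 tested features were listed as higher, 0.319% as lower and 1.19% in all. In HP1a RNAi 4 of the 5 were listed, all higher, where 4.18% of 8287 tested features were listed as higher, 2.28% as lower and 6.46% in all. The markers were named with these lists known, so nothing is read from those counts. The RNAi and GFP values did not overlap for any of them, as was the case for 100% of the listed features in either table.

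Pxn was the most abundant listed feature of both tables and was higher in both RNAi groups. In the table of dKDM4A RNAi its normalized counts were 158475 and 119469 in the GFP libraries and 297169 and 269658 in the libraries labelled dKDM4A RNAi. In the table of HP1a RNAi they were 186823 and 140994 in the same GFP libraries, and 406768 and 334266 in HP1a RNAi. The lower RNAi library stood 1.70-fold above the higher GFP library in the first table and 1.79-fold above it in the second.

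In the libraries labelled dKDM4A RNAi the mean of Pxn rose 2.04-fold, from 138972 ± 27581 to 283413 ± 19453 (SD, n = 2 each). By limma on log2(normalized count + 1) the log2 difference was 1.04 (95% interval 0.67 to 1.41, adjusted p = 0.00192 over the 90 listed rows). In HP1a RNAi the mean rose 2.26-fold, from 163909 ± 32406 to 370517 ± 51266 (SD, n = 2 each), with a log2 difference of 1.18 (95% interval 0.70 to 1.67, limma adjusted p = 0.00613 over the 535 listed rows). The authors' deposited table gives log2 fold changes of 0.94 ± 0.14 (SE) and 1.08 ± 0.17 (SE). Limma called 100% of the rows of the first table and 98.1% of those of the second, which had been selected on the same libraries.

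Between the GFP libraries Pxn differed by a ratio of 1.33 in replicate 1 over replicate 2, which is a coefficient of variation of 19.8%, against a median of 4.68% and 6.11% for all listed features of the 2 tables. The reads behind these values were 199657 and 101163, so counting error is far smaller than this spread. The increase therefore depended on the control library used. Without GFP replicate 2 the log2 difference was 0.84 in the libraries labelled dKDM4A RNAi and 0.98 in HP1a RNAi, and without GFP replicate 1 it was 1.24 and 1.39.

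Pxn was the only marker in both tables, so it alone could be compared between the RNAi groups, each centred on the GFP mean of its own table. The log2 difference of HP1a RNAi minus dKDM4A RNAi was 0.14 (95% interval -0.21 to 0.50, limma adjusted p = 0.523 over 43 shared features). Of those features 6 (14.0%) were called, and this count was 0 with the replicate number as a block or without either dKDM4A library, 21 without HP1a replicate 1 and 15 without HP1a replicate 2. Without HP1a replicate 1 the difference of Pxn was 0.0016, and without HP1a replicate 2 it was 0.28 (limma adjusted p = 0.000339). HP1a RNAi then has 1 library, assumed to vary like those labelled dKDM4A RNAi, and the standard error was pooled over features to 0.0657 (0.12 for Pxn with all libraries), so no difference is read from that p-value.

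**Figure D1:**
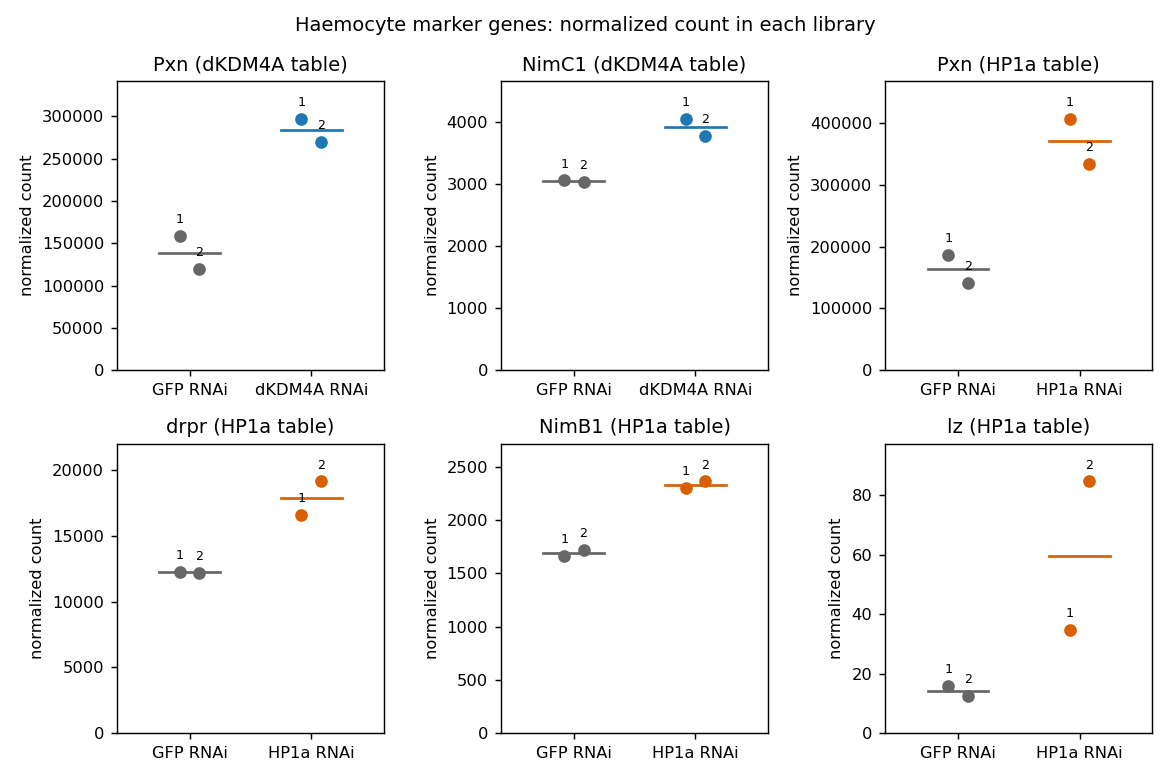
Normalized count (linear axis from 0) of each marker in each library, with the replicate number above each point and the group mean as a line; grey is GFP RNAi, blue the libraries labelled dKDM4A RNAi and orange HP1a RNAi. RNAi points lie above the GFP points in every panel, closely grouped for NimC1 and NimB1 and far apart for lz in HP1a RNAi, where they are 34.7 and 84.7.

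The Nimrod genes NimC1 and NimB1 were each listed in 1 table only. NimC1, a phagocytosis receptor on plasmatocytes that carries their P1 antigen, had 3055 and 3028 normalized counts in the GFP libraries and 4047 and 3774 in the libraries labelled dKDM4A RNAi. The GFP values lay close together and both RNAi values lay above them. The mean rose 1.29-fold, from 3042 ± 19.2 to 3910 ± 193 (SD, n = 2 each), with a log2 difference of 0.36 (95% interval 0.21 to 0.51, limma adjusted p = 0.00253).

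NimB1, whose product is a secreted member of the family, had 1667 and 1723 normalized counts in the GFP libraries and 2306 and 2364 in HP1a RNAi. Its coefficients of variation were 2.34% in the GFP libraries and 1.77% in HP1a RNAi, the latter the lowest of the 4 markers in those libraries. The mean rose 1.38-fold, from 1695 ± 39.7 to 2335 ± 41.3 (SD, n = 2 each), and the log2 difference was 0.46 (95% interval 0.24 to 0.68, limma adjusted p = 0.00916). The authors' deposited table gives adjusted p-values of 2.24e-06 for NimB1 and 0.00211 for NimC1. NimC1 after HP1a RNAi and NimB1 after dKDM4A RNAi were not analysed here, so whether either responds to 1 treatment alone was not tested.

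NimB1 (FBgn0027929, chromosome 2L, 13963507 to 13965088, plus strand) and NimC1 (FBgn0259896, chromosome 2L, 13973158 to 13976769, minus strand) lie 8.07 kb apart in the Nimrod cluster. The positions are as the files give them and equal those of the BDGP6 annotation. Of 10 annotated Nimrod genes, all on 2L, 1 was listed in each table. Among all tested features 1.19% were listed for dKDM4A RNAi and 6.46% for HP1a RNAi. How many of the 10 were among the tested features is unknown here, so nothing is read from these counts. He, which lies 210 bp beyond the end of NimC1, was not listed. The cytochrome P450 gene Cyp28a5, 532 bp beyond the start of NimC1, was listed as higher in the libraries labelled dKDM4A RNAi (1.46-fold, limma adjusted p = 0.00432). The last 77 bp of NimB1 overlap exons of NimB2 on the opposite strand, and none of the sources used here says whether counting used strand.

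drpr encodes Draper, an engulfment receptor that haemocytes and glia use to clear dying cells and debris. Its normalized counts were 12248 and 12171 in the GFP libraries, and 16585 and 19138 in HP1a RNAi. The GFP libraries were almost equal and both HP1a libraries were higher. The mean rose 1.46-fold, from 12210 ± 53.8 to 17862 ± 1805 (SD, n = 2 each). The log2 difference was 0.55 (95% interval 0.26 to 0.83, limma adjusted p = 0.0106), and the authors' deposited adjusted p was 2.07e-05.

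drpr (FBgn0027594, chromosome 3L, 1715595 to 1731107, minus strand) holds the genes CG18171 and CG12035 within its introns. CG18171, on the same strand and with no exon bases in common with drpr, was also listed in HP1a RNAi, with 278 and 386 normalized counts in the GFP libraries and 548 and 627 in HP1a RNAi (1.77-fold, limma adjusted p = 0.0146). Its limma log2 difference was 0.84. With each library left out it ranged from 0.60 (without GFP replicate 1) to 1.07 (without GFP replicate 2). None of the sources used here says how reads from unspliced drpr RNA were assigned. At the other end 115 bp of drpr exons are shared with Oseg4, which was not listed. Pxn (FBgn0011828, chromosome 3L, 2601455 to 2630064, minus strand) lies 870.3 kb away. Its exons overlap those of CG16986 by 82 bp and those of lncRNA:CR45660 by 151 bp, and neither was listed.

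lz had the largest ratio of means and limma difference of the markers with all libraries in the fit, and the widest interval. By the deposited log2 fold change, or by limma without HP1a replicate 2 (1.24 for lz and 1.33 for Pxn), Pxn in HP1a RNAi was above it. The deposited value lay below the log2 ratio of means by 1.06 for lz and by 0.10 for Pxn in HP1a RNAi. The order of lz and Pxn thus depends on the measure. Normalized counts of lz were 15.9 and 12.5 in the GFP libraries and 34.7 and 84.7 in HP1a RNAi. They correspond to 17, 9, 43 and 89 reads. The exact 95% Poisson intervals of those reads were 9.90 to 27.2, 4.12 to 17.1, 31.1 to 57.9 and 71.5 to 110, covering counting error only. Both HP1a libraries were above both GFP libraries, and replicate 2 of HP1a was 2.44 times replicate 1, beyond their counting intervals. Among the 535 listed features lz had the third largest coefficient of variation in HP1a RNAi (59.3%) and ranked 527 by mean level.

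The mean of lz rose 4.20-fold, from 14.2 ± 2.38 to 59.7 ± 35.4 (SD, n = 2 each). The limma log2 difference was 1.87 (95% interval 0.71 to 3.03, adjusted p = 0.0158), and the authors' deposited log2 fold change was 1.01 ± 0.30 (SE, adjusted p = 0.0181). The size rested on single libraries, because the log2 difference was 1.24 without HP1a replicate 2 and 2.50 without HP1a replicate 1. lz (FBgn0002576, chromosome X, 9284649 to 9303636, plus strand) overlaps no other annotated gene, and c11.1, the only neighbour within 3 kb, was not listed.

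**Figure D2:**
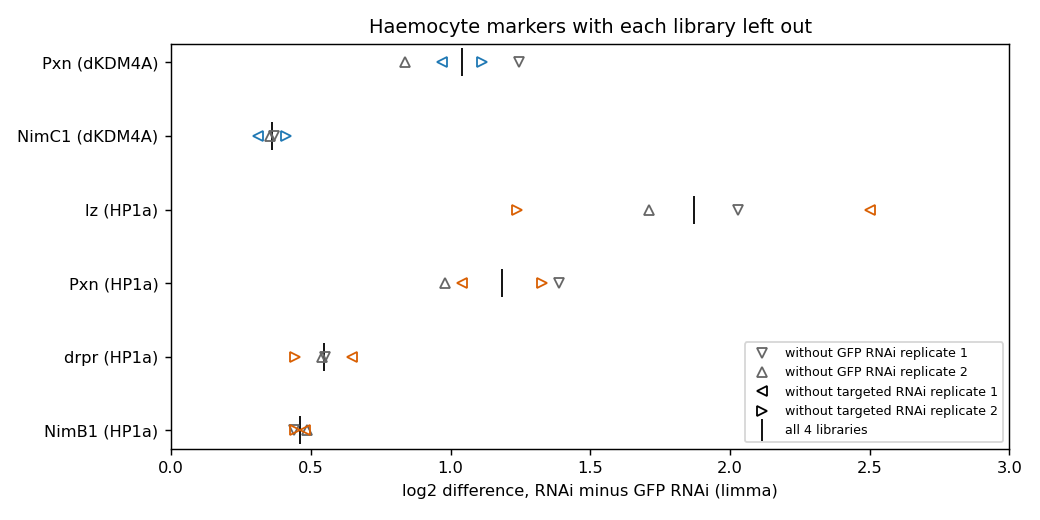
Limma log2 difference from GFP RNAi (horizontal axis) for each marker with all 4 libraries (black bar) and with each library left out (triangles). All values are above 0; NimC1 and NimB1 stay within 0.31 to 0.49, while lz ranges from 1.24 to 2.50.

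Per kilobase of annotated exon the markers spanned a wide range of levels. In the GFP libraries of the HP1a table the mean was 27524.5 normalized counts per kb for Pxn, 2567 for drpr, 1315 for NimB1 and 4.10 for lz. Neighbours in this order did not overlap in either group. In the GFP libraries of the dKDM4A table Pxn had 23337 and NimC1 924 normalized counts per kb. Reads in bulk RNA do not separate more cells with a transcript from more RNA per cell, so for lz in particular a few cells at a high level and many at a low level cannot be told apart.

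**Figure D3:**
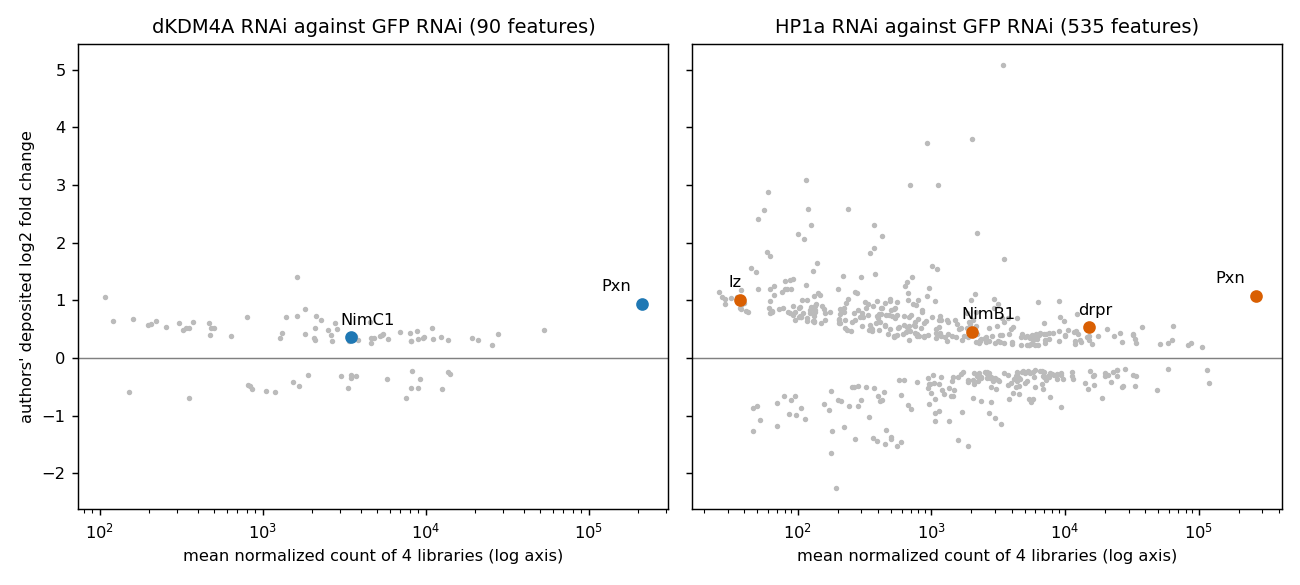
Authors' deposited log2 fold change against mean normalized count of 4 libraries (log axis) for every listed feature (grey), with the markers coloured. Pxn lies at the far right of both panels with changes of 0.94 and 1.08, while lz lies near the left edge among features of low count.

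Related gene lists held few other listed genes, and no list was tested as a set. In the libraries labelled dKDM4A RNAi, 2 of 18 plasmatocyte and general haemocyte markers were listed (Pxn and NimC1), 1 of 28 Nimrod and engulfment genes (NimC1) and 2 of 17 basement membrane and matrix genes. The second matrix gene was Mmp1, a secreted metalloprotease, and it fell. Mmp1 had 6594 and 6559 normalized counts in the GFP libraries, and 5197 and 4903 in the libraries labelled dKDM4A RNAi (1.30-fold lower, limma adjusted p = 0.00215). The lists for crystal cells, lamellocytes, blood cell fate regulators, and clotting and melanization had 0 listed genes there, against 1.19% of all tested features.

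In HP1a RNAi 3 of 7 crystal cell genes were listed, where 6.46% of all tested features were listed, the share beside which each list count in HP1a RNAi below stands. Besides lz these were PPO2, a prophenoloxidase stored in crystal cells, which rose, and the Notch ligand gene Ser, which fell. PPO2 had 200 and 185 normalized counts in the GFP libraries, and 290 and 267 in HP1a RNAi (1.44-fold, limma adjusted p = 0.00976). Ser had 2805 and 2495 in the GFP libraries, and 2088 and 2037 in HP1a RNAi (1.28-fold lower, limma adjusted p = 0.0237). The limma log2 difference of Ser ranged from -0.44 to -0.27 with each library left out. The median deposited log2 fold change of the 3 listed crystal cell genes was 0.49, beside 0.40 for all 535 listed features.

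The list of 20 blood cell fate regulators had lz and pnr listed. pnr, a GATA factor gene, rose from 29751 and 28850 normalized counts to 36680 and 37467 (1.27-fold, limma adjusted p = 0.0180). Its limma log2 difference stayed between 0.32 and 0.36 with each library left out. The median deposited log2 fold change of lz and pnr was 0.67.

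Of 28 Nimrod and engulfment genes, drpr and NimB1 were higher in HP1a RNAi and Rac2, a small GTPase gene of the cytoskeleton, was lower, with a median deposited log2 fold change of 0.45. Rac2 had 6037 and 6017 normalized counts in the GFP libraries, and 5205 and 4804 in HP1a RNAi (1.20-fold lower, limma adjusted p = 0.0369). When each library was left out in turn, the limma log2 difference of Rac2 ranged from -0.33 to -0.21. Of 13 clotting and melanization genes 3 were listed, with a median of 0.49. The clot protein gene fon rose 1.57-fold (limma adjusted p = 0.0101) together with PPO2. Spn27A, a serpin gene that restrains melanization, was 1.45-fold lower (limma adjusted p = 0.0154). Its limma log2 difference was -0.53, and ranged from -0.65 to -0.41 with each library left out.

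Of 9 lamellocyte genes the tubulin gene betaTub60D was listed, 1.35-fold higher (limma adjusted p = 0.0121). Its limma log2 difference was 0.43, and ranged from 0.38 to 0.48 with each library left out. Pxn and NimB1 were the 2 listed of 18 plasmatocyte and general haemocyte markers, and Pxn was the only listed gene of 17 for basement membrane and matrix. The crystal cell, engulfment and clotting lists thus each held 1 lower gene (Ser, Rac2 and Spn27A) beside 2 higher ones. These lists mix genes of different roles, such as Spn27A, which restrains melanization. What the directions mean for each process was not tested.

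**Figure D4:**
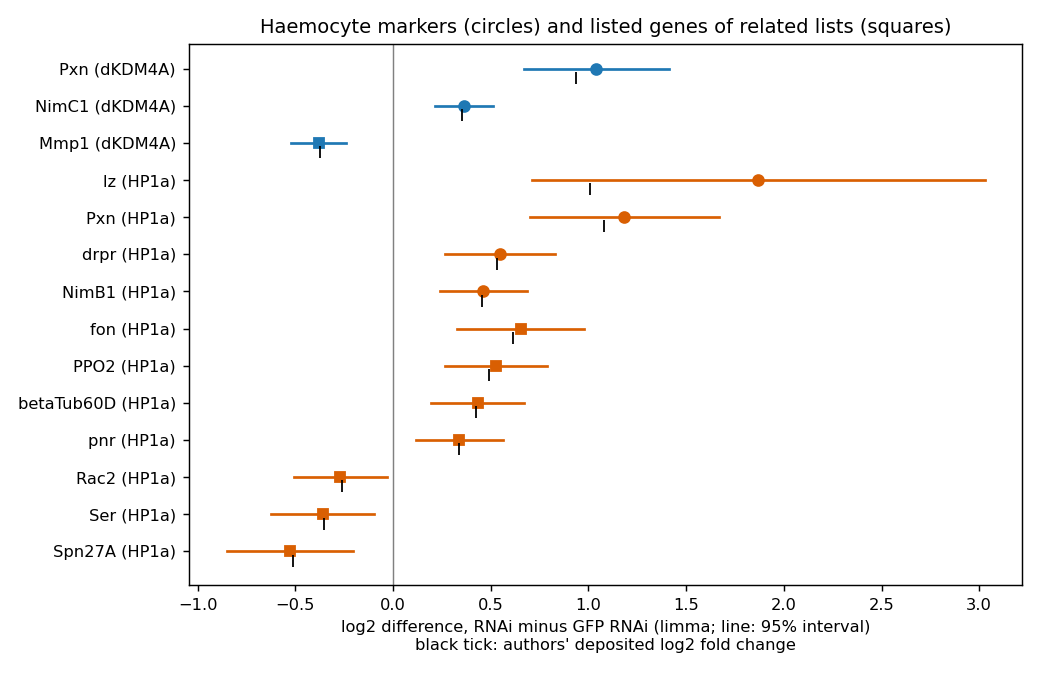
Limma log2 difference from GFP RNAi with its 95% interval for the markers (circles) and for the listed genes of the related lists (squares), in blue for the libraries labelled dKDM4A RNAi and in orange for HP1a RNAi; black ticks are the authors' deposited log2 fold changes. The markers and 4 other genes lie above 0, and Mmp1, Rac2, Ser and Spn27A lie below 0.

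Markers of other cell types were also listed in HP1a RNAi. Of 8 glia markers 2 were higher, Eaat1 and Gs2, and their summed normalized count was 2020 to 2146 in the GFP libraries and 2846 to 3048 in HP1a RNAi. With each library left out, the limma log2 difference ranged from 0.42 to 1.28 for Eaat1 and from 0.28 to 0.46 for Gs2. Of 11 germline markers 5 were higher and 1 lower, with a sum of 15777 to 18323 in the GFP libraries and 19246 to 19264 in HP1a RNAi. Most of that sum came from aub and AGO3, with means of 10691 and 5090 in the GFP libraries. From low counts, vas rose 5.06-fold (means of 20.5 and 104) and osk 2.63-fold (42.2 and 111). The genes aub, zpg and tej rose 1.32- to 1.34-fold, and AGO3 was 1.62-fold lower. With each library left out, the limma log2 difference ranged from 0.31 to 0.49 for tej and from -0.95 to -0.38 for AGO3. Single fat body and muscle markers were lower (Rfabg 3.15-fold, bt 2.97-fold), and 0 of 9 neuron markers were listed. The chromosomal positions of Rfabg and bt were not examined here. Whether their decrease goes with cell type or with a shared chromosome was therefore not tested. The germline gene piwi was 1.64-fold lower in the libraries labelled dKDM4A RNAi, and 0 markers of fat body, neurons, glia or muscle were listed. No listed marker was at 0 in any library. All libraries were of S2 cells, so none of these values is read as a share of another cell type. That includes drpr, which glia also express.

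For each marker the 3 listed genes with the most similar values were taken, by the root mean square difference in log2(normalized count + 1) centred on the GFP mean over 4 libraries. For Pxn these were daw, CG5697 and e in the table of dKDM4A RNAi (differences of 0.21 to 0.23) and ninaG, CG12493 and CG4415 in that of HP1a RNAi (0.11 to 0.12). The closest to NimC1 were CG4407, path and mmd (0.017 to 0.035), and to NimB1 LManI, zpg and sunn (0.030 to 0.034). Those closest to drpr were Ect3, Ant2 and corto (0.031 to 0.049). The nearest genes to lz, CG12477, CG34331 and CG31140, differed by 0.26 to 0.31. Those were the largest of these differences, beside 0.21 to 0.23 for Pxn in the table of dKDM4A RNAi. None of the markers was among the genes closest to another. With only 3 genes taken per marker from all listed rows, nothing is read from that.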

How the data were processed

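The authors deposited, per the file headers, a table per RNAi treatment with normalized counts (a signal of reads divided by a size factor per library), log2 fold changes with standard errors, a score (the log2 fold change over its standard error), p-values and adjusted p-values. TopHat, Bowtie and DESeq2 are named, without roles, per the submitters' processing notes. The build is not named in any source used here, and marker positions equal those of BDGP6. Numbers of tested features were recovered from the deposited p-values and adjusted p-values. Every normalized count was a whole multiple (within 0.1 reads) of the value of 1 read, which gave the reads quoted. The 43 shared features had equal GFP reads in both tables. No count test was run, since low values were too few to check that the recovered reads are raw counts. The counting intervals of lz and the counting error named for Pxn assume that they are.

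Limma 3.58.1 (R 4.3.3) was fitted to log2(normalized count + 1) in each table over all rows with a mean of at least 1. P-values were adjusted by Benjamini-Hochberg. Differences on the log2(normalized count + 1) scale understate the change of low genes. The fit was also run on simulated data in which most rows did not differ. The listed rows were selected for differing, so that run does not vouch for their p-values. Folds in the text are ratios of mean normalized counts. With 2 libraries a group, the smallest p of an exact permutation test is 0.333. The 12 gene lists cover plasmatocytes, crystal cells, lamellocytes, engulfment, matrix, fate regulators, clotting, fat body, neurons, glia, muscle and germline. List sizes count genes matched to current symbols. Some genes stand in several lists. Members, lists and the rule for named genes (all markers, all listed genes of the lists, the 3 closest genes per marker and both targets) were chosen with earlier results of these data known. CG18171 and Cyp28a5 were named after their values were seen. Exon lengths come from the BDGP6 annotation. Other steps ran in Python 3.11.15 with pandas 2.3.3, numpy 2.4.6 and scipy 1.17.1, and figures in matplotlib 3.10.9.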

Additional observations from a re-analysis of the deposited data

How the results depend on the processing

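Without a filter the fit was the same as the main one, since the filter had removed no listed row. With a pseudocount of 0.1 or 5 limma called 90 of 90 listed features for dKDM4A RNAi. For HP1a RNAi it called 525 and 526 of 535. The rows had been selected on the same libraries, so nothing is read from markers that stayed called. All 6 marker differences from GFP RNAi kept their direction and stayed past an adjusted p of 0.05 by limma in these settings and with the replicate block. The same was found with each library left out, but such a fit has an arm of 1 library, assumed to vary like the other group, and takes its spread from that group and from the other features. Those p-values are therefore no sign of stability, and a call lost in such a fit, with fewer libraries, is not read as weakness. A minimum mean of 100 removed lz. At an adjusted p below 0.01, 2 of the 4 markers in HP1a RNAi were called (Pxn and NimB1), among 221 of all listed features in place of 525. With each library left out, limma called from 334 (without HP1a replicate 2) to 383 listed features for HP1a RNAi, from 84 to 90 for dKDM4A RNAi, and from 0 to 1 markers in the comparison of the RNAi groups, where Pxn alone could be tested and was called without HP1a replicate 2. The cause of these changes was not tested. With the replicate number as a block, 4 markers and 513 listed features were called for HP1a RNAi, 2 markers and 90 listed features for dKDM4A RNAi, and 0 markers between the RNAi groups (0 also at an unadjusted p below 0.05). Deviations of libraries with the same number correlated at 0.28 and 0.24, and 2 pairs cannot show that the numbers pair the samples. Among the alternatives for other named genes, 400 values stayed on their side of the threshold, whether called or not, 55 lost a call and 4 gained it. The count test on recovered reads was not run, and other scalings could not be tried on listed rows alone. Depth limits lz, with 9 to 89 reads per library.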
